A study of Mus musculus with 8 samples.

Results

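Small nucleolar RNA (snoRNA) genes were read in splenic regulatory T cells (Tregs) of mice labelled SRC-3KO or control, with and without a tumor. Members were the genes whose deposited biotype is snoRNA or scaRNA and that reached at least 1 FPKM in at least 2 of the 4 tumor libraries. FPKM is a fragment level scaled to gene length and library size. The rule kept 103 of 1558 such genes (of 55487 genes in all), 100 with the biotype snoRNA and 3 with the biotype scaRNA. They lie at 100 distinct loci, because Snord80, Rnu3b2 and Rnu3b4 are each listed as a pair of overlapping entries. Members were thus chosen by their FPKM in the tumor libraries, and their tumor levels are given as a description.

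Tregs are CD4 T cells that express Foxp3, and SRC-3, encoded by Ncoa3, is a transcriptional coactivator. The 8 libraries form 4 groups of 2, by genotype (SRC-3KO or control) and by host (tumor-bearing or tumor-free C57BL/6 mice). The labels say that the cells were sorted for GFP from the spleen and that SMART-Seq v4, which amplifies cDNA primed at poly(A) tails, was used. Both tumor controls are named for Foxp3-Cre, a recombinase driven by the Foxp3 gene. Without a tumor, control replicate 2 is also named for Foxp3-Cre, but the name of control replicate 1 says wild type and its source label lacks GFP. Tam1 stands in the names of both tumor-free SRC-3KO libraries, and the sources used here do not explain it. Nor do they give the tumor type, the animals' age or the promoter that drove the SRC-3 deletion. The labels do not say that replicates came from separate animals, so the spread behind each p-value is that between samples and may be technical only. In such bulk samples, fewer cells of a type and less RNA per cell cannot be told apart.

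Most snoRNAs are cut from introns of host genes and work in particles with proteins. Box C/D snoRNAs guide 2′-O-methylation of ribosomal and other RNAs through fibrillarin, and box H/ACA snoRNAs guide pseudouridylation through dyskerin. A few (U3, U13, U14 and U17) act in the cutting of the ribosomal RNA precursor, and scaRNAs act in Cajal bodies on spliceosomal RNAs. Mature snoRNAs carry no poly(A) tail, while their host transcripts often do.

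The sequences shown first are those of the U17 pair, which share a host, and of the box C/D RNAs with the highest levels within Gas5. They are read 5′ to 3′ on the RNA's strand from GENCODE vM21 transcripts (build mm10), with T for U. In box C/D RNAs, capitals mark the TGATGA of box C nearest the 5′ end, where present, and the CTGA of box D nearest the 3′ end. In box H/ACA RNAs they mark an ACA ending 2 to 4 bases before the 3′ end. Snora9 and Snord104 are shown as 2 members of high level outside these hosts.
Snora73b: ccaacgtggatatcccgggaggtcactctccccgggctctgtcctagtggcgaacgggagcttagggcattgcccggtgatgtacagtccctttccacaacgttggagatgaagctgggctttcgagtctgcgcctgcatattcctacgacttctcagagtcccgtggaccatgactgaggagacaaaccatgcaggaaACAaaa
Snora73a: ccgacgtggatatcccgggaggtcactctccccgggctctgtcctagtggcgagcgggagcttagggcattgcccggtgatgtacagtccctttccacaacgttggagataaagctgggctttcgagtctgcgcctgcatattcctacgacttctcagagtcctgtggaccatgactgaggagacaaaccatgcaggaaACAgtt
Snord78: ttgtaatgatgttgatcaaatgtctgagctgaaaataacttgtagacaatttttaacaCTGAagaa
Gm22357: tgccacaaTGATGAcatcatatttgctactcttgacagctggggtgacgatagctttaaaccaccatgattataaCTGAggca
Gm23212: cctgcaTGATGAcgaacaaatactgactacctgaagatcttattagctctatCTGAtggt
Snora9: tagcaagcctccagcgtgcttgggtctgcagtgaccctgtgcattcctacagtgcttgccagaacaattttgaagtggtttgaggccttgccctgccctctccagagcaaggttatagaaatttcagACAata
Snord104: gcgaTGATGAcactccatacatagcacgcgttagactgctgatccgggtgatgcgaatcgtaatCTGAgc

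Snora73b (chr4:132352322-132352526, minus strand) and Snora73a (chr4:132352775-132352979, minus strand) are copies of U17, and 198 of their 205 positions are identical (96.6%). Reads may be split between them, so the level of either copy alone is uncertain. Among Gas5 entries, Snord78 lies at chr1:161036984-161037049, Gm22357 at chr1:161036057-161036139 and Gm23212 at chr1:161036682-161036741, all on the plus strand. Snora9 lies at chr11:6528033-6528165 (minus strand) in Snhg15. Snord104 lies at chr11:106500993-106501062 (plus strand) with no annotated gene over it on its strand.

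By symbol, 37 members are box C/D, 17 are box H/ACA, 1 is a Scarna gene and 48 have symbols that give no class. The motifs were searched on the RNA's strand only. TGATGA was in 27 of the 37 box C/D members (73.0%), against 77.8% of the 108 box C/D genes of the table, and CTGA, whose last 3 letters can be the first of a TGATGA, was found anywhere in 100% of both. The near-terminal ACA was in 16 of 17 box H/ACA members (94.1%), against 95.2% of the 42 such genes of the table. The looser box H motif ANANNA was in 100% of both. Of the 48 members without a class in the symbol, 16 held TGATGA with CTGA (33.3%) and 20 held ANANNA with the near-terminal ACA (41.7%), against 20.5% and 42.5% of the 1399 such genes of the table. A match is a description of letters.

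Members were short, 60 to 275 bases (median 104), and mostly low. Their mean FPKM over the 4 tumor libraries ran from 0.552 to 12.3, with a median of 1.72. Of the 103, 96 had a mean under 5 FPKM and 66 under 2 FPKM. FPKM values of genes under 150 bases recurred at a library-specific step, 0.219 and 0.207 FPKM in control against 0.200 and 0.187 FPKM in SRC-3KO replicates 1 and 2, and at 2 and 3 times it. At the step itself lay 17 to 39 genes of each library. Taken as a mean coverage of 1 read, the step puts 1 FPKM at a coverage of 4.57 to 5.35. It spans 1.17-fold over the libraries, and the deposited values hold no read counts. On that reading 67 members had a mean coverage under 10. The rule's edge is narrow: Snord17, Snord92 and Gm50452 lay just inside, with a second-highest value of 1.003, 1.010 and 1.010 FPKM. Snord59a at 0.974 FPKM and the Rnu3b3 entries at 0.969 and 0.966 FPKM lay just outside.

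With a tumor, 62 of the 103 members stood above either control in both SRC-3KO libraries. Of all 12859 features tested, 27.5% were. The opposite order held for 5 members (Snord55, Scarna13, Snord42a, Gm23639 and Gm50451), and for 24.9% of all features, and 36 members overlapped. These counts partly follow from the rule: 33 members entered through both SRC-3KO libraries alone and 3 through both controls alone, and all 36 lie in the order that this fixes. Among the 67 that reached 1 FPKM in libraries of both groups, 29 were higher and 2 lower. Taking instead all 404 snoRNA and scaRNA genes with any value above 0 (a set chosen after the data were seen), 144 were higher (35.6%) and 15 lower, against 23.6% and 16.9% of 27033 features.

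Summed over the members, control replicates 1 and 2 held 144 and 117 FPKM and SRC-3KO replicates 292 and 383 FPKM. Both SRC-3KO sums lay above both control sums. The rule partly sets these sums and the shares and counts below. Through both SRC-3KO libraries alone 33 members entered, and 3 through both controls alone. Over all 1558 snoRNA and scaRNA genes, the sums were 184 and 172 FPKM in control against 393 and 513 FPKM in SRC-3KO. As a share of all FPKM in the library, the members took 0.0280% and 0.0254% in control and 0.0702% and 0.0937% in SRC-3KO. In control, 56 and 45 members reached 1 FPKM and 17 and 9 were listed at 0, and in SRC-3KO 90 and 91 reached it and 0 and 1 were listed at 0. The members' replicates also differed more than those of other features. The median absolute log2 difference between replicates was 0.57 in control and 0.50 in SRC-3KO for members, and 0.37 and 0.16 for all features tested.

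Changes are log2 ratios of SRC-3KO over control on the log2(FPKM + 1) scale, which understates those of low genes, with a standard error (SE) over 2 libraries per group. limma with Benjamini-Hochberg adjustment over all 12859 features called 1 member up and 0 down at 0.05, while 0.0156% of all features were called up and 0.0933% down. Leaving out 1 library left 1 library in a group and changed the set of members tested. It held 91 and 95 members without control replicates 1 and 2, and 64 and 62 without SRC-3KO replicates 1 and 2. At an unadjusted p under 0.05, 49 members were higher and 3 lower (50.5% of members, against 16.5% of all features). The rule used the same values: 29 of the 49 entered through both SRC-3KO libraries alone, all 3 lower ones through both controls alone, and 20 of the 67 members that entered through both groups were higher and 0 lower. These counts are therefore a description. The members' median log2 fold change was 0.82 (0.54 for those 67), and that of all features was -0.02. Of the 598 other tested features of at most 300 bases, 123 were higher in both SRC-3KO libraries, 206 were lower and the median was -0.19. The 186 microRNA genes among these had 70 higher, 38 lower and a median of 0.20.

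Markers of other cell types differed between the same tumor libraries. The summed level of 9 B cell and plasma cell markers was 1723 and 2376 FPKM in control against 273 and 253 FPKM in SRC-3KO, with 8 of 9 lower in both SRC-3KO libraries. The 6 myeloid and neutrophil markers summed to 3.58 and 4622 FPKM in control and to 2.09 and 0.826 FPKM in SRC-3KO, so control replicate 2 stands apart. In the other control, Csf1r and Itgam were at 0. The 5 CD8 T and NK cell markers summed to 159 and 111 FPKM against 58.4 and 37.8 FPKM, of which 2 lay below and 1 above both controls in each SRC-3KO library, and the 4 hemoglobin genes to 2.51 and 55.1 FPKM against 0 and 0.0973 FPKM. Jchain, Csf1r, Ncr1 and all 4 hemoglobin genes were at 0 in SRC-3KO replicate 1, and Itgam, Adgre1, S100a8, S100a9, Hba-a1 and Hba-a2 in SRC-3KO replicate 2. Pax5 and Ncr1 were at 0 in control replicate 1. Of 7 Treg markers, 6 were higher in both SRC-3KO libraries (a sum of 2205 and 1642 FPKM in control against 2568 and 2528 FPKM), and none was at 0. Foxp3 stood at 18.4 and 14.7 FPKM in control against 20.1 and 28.8 FPKM in SRC-3KO. Ncoa3, the targeted gene, stood at 37.7 and 45.4 FPKM in control against 47.5 and 27.7 FPKM in SRC-3KO, so its groups overlapped. The sources used here do not say which exons were deleted, and these values check no label. The part of other cell types in the snoRNA levels was not tested.

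**Figure D1:**
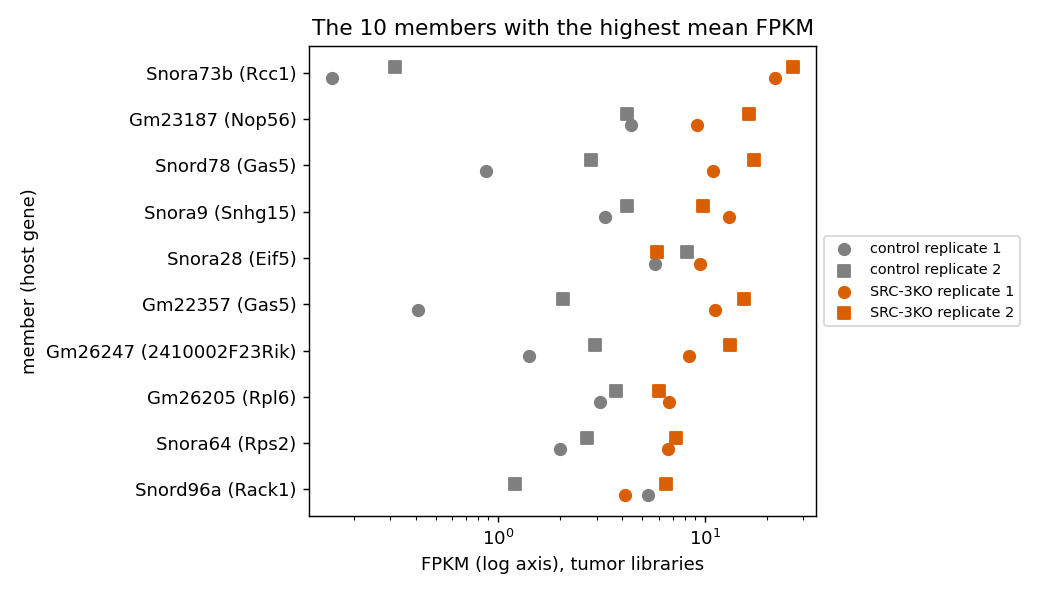
FPKM (log axis) of the 10 members with the highest mean FPKM in the 4 tumor libraries, with grey for control and orange for SRC-3KO, circles for replicate 1 and squares for replicate 2, and the host gene in brackets. Snora73b lies at 0.158 and 0.317 FPKM in control against 21.9 and 26.9 FPKM in SRC-3KO, while Snora28 and Snord96a overlap.

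Snora73b, the U17 RNA that acts in cutting the ribosomal RNA precursor, had the highest mean level of the members. It stood at 0.158 and 0.317 FPKM in control against 21.9 and 26.9 FPKM in SRC-3KO replicates 1 and 2. Both SRC-3KO libraries lay far above both controls, and on the reading of the step given above the controls had a mean coverage of 0.721 and 1.53 against 109 and 144. It rose by 4.35 on the log2 scale (SE 0.24, limma adjusted p = 0.0163), with the difference in the same direction in both libraries. It met the rule, and with it the filter of the fit, through both SRC-3KO libraries alone, so its direction was fixed by its choice and the p is no independent support. The call ended when features of any value above 0 were tested (limma adjusted p = 0.278) or when FPKM was multiplied by length (limma adjusted p = 0.0551), with log2 fold changes of 4.35 and 5.10. Over the other alternatives that could be fitted the adjusted p ran from 0.00334 to 0.0346, and without either SRC-3KO library the gene was no longer tested.

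The second U17 copy, Snora73a, had a lower level. It stood at 0.160 and 0.425 FPKM in control against 1.27 and 4.24 FPKM in SRC-3KO. Both SRC-3KO libraries were again above both controls, but the difference of 1.42 (SE 0.44, limma adjusted p = 0.237) missed the threshold. Both copies lie within Rcc1, a chromatin-bound exchange factor for Ran, and within the smaller non-coding gene Snhg3. Rcc1 stood at 38.2 and 27.6 FPKM in control against 31.03 and 29.3 FPKM in SRC-3KO, and its groups overlapped. Snhg3 stood at 0.184 and 2.16 FPKM against 0.406 and 0.859 FPKM and also overlapped. Gm17300, annotated on the opposite strand with an exon over Snora73b, stood at 5.07 and 4.41 FPKM against 5.01 and 5.07 FPKM. The strand setting of the authors' counting is not given, so reads of the opposite strands cannot be told apart here.

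Gas5, a non-coding gene whose introns hold a row of box C/D snoRNAs, hosts 10 member entries at 9 loci. In the annotation used, exons of Gas5 transcripts overlap Snord78, Gm22357 and Gm23212, among others. Their values may thus hold Gas5 reads, which was not tested. The 2 overlapping Snord80 entries hold nearly the same values and are 1 locus. All 10 entries were higher in both SRC-3KO libraries, beside 27.5% of all features tested. The rule fixed this order for Gm26224, Gm50452, Snord47 and Gm25789, which reached 1 FPKM in both SRC-3KO libraries alone. Their summed level, with both overlapping Snord80 entries counted, was 7.68 and 8.40 FPKM in control against 49.4 and 71.8 FPKM in SRC-3KO. Gas5 itself (chr1:161034422-161038539, plus strand) stood at 39.7 and 39.1 FPKM in control against 40.3 and 49.3 FPKM in SRC-3KO. Its groups did not overlap, but the difference was only 0.17 (SE 0.19, limma adjusted p = 0.658).

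Snord78 stood at 0.875 and 2.82 FPKM in control against 11.0 and 17.3 FPKM in SRC-3KO, a log2 difference of 2.47 (SE 0.42, limma adjusted p = 0.135). Gm22357 stood at 0.411 and 2.06 FPKM in control against 11.2 and 15.5 FPKM in SRC-3KO, a difference of 2.77 (SE 0.43, limma adjusted p = 0.121). Gm23212 stood at 1.09 and 0.352 FPKM in control against 5.73 and 9.76 FPKM in SRC-3KO, a difference of 2.34 (SE 0.36, limma adjusted p = 0.121). In each of these genes SRC-3KO replicate 2 was highest, and both controls lay below both SRC-3KO libraries. These 3 sit next to each other toward the middle of the gene, and the other entries had lower SRC-3KO levels. The log2 differences of all 10 ran from 1.28 to 2.77, with a median of 1.62. None of the 10 passed the test with all 4 libraries.

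**Figure D2:**
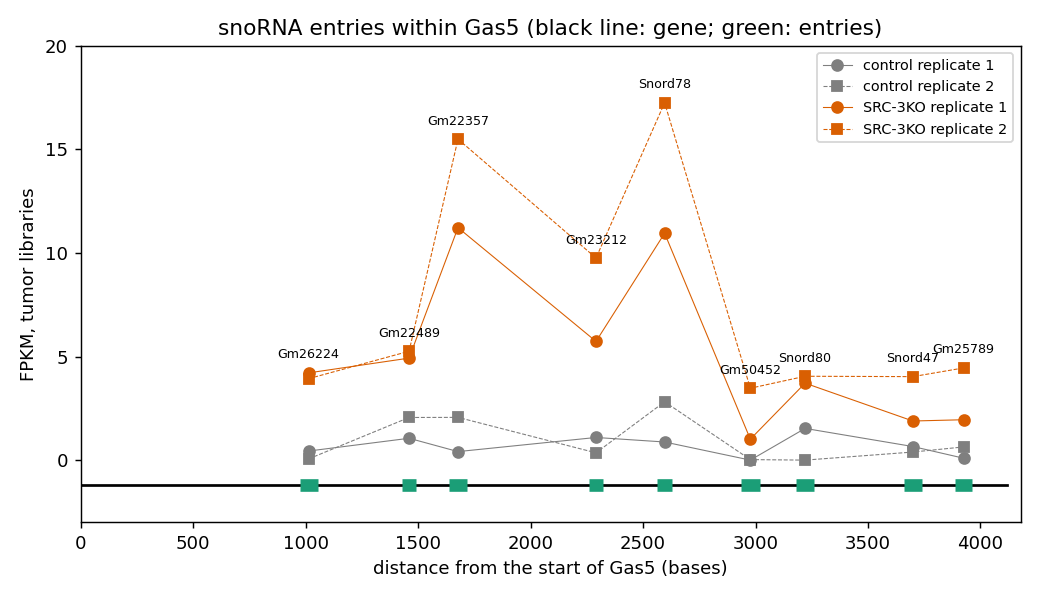
FPKM of the snoRNA entries of Gas5 in the 4 tumor libraries (grey for control, orange for SRC-3KO, circles and squares for replicates 1 and 2), plotted at their distance from the start of Gas5 in bases, with the gene as a black line and entries in green (1 of the overlapping Snord80 entries is left out). Both SRC-3KO libraries lie above both controls at each entry, and Gm22357 and Snord78 reach 15.5 and 17.3 FPKM. The rule fixed this order for Gm26224, Gm50452, Snord47 and Gm25789.

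Other members with high levels included 3 box H/ACA RNAs and several with symbols that give no class. Snora9, overlapping an exon of a Snhg15 transcript, stood at 3.28 and 4.19 FPKM in control against 13.2 and 9.86 FPKM in SRC-3KO (1.40, SE 0.25, limma adjusted p = 0.144). Snora64, in the ribosomal protein gene Rps2, stood at 2.01 and 2.70 FPKM in control against 6.67 and 7.27 FPKM in SRC-3KO (1.26, SE 0.24, limma adjusted p = 0.146). Snora28, in the translation factor gene Eif5, stood at 5.78 and 8.19 FPKM in control against 9.49 and 5.87 FPKM in SRC-3KO (0.11, SE 0.31, limma adjusted p = 0.876). The first 2 had groups that did not overlap, and Snora28 had groups that did. Gm23187, in the snoRNP core gene Nop56, stood at 4.42 and 4.23 FPKM against 9.18 and 16.5 FPKM (1.32, SE 0.31, limma adjusted p = 0.177). Gm26247, in 2410002F23Rik, stood at 1.42 and 2.96 FPKM against 8.44 and 13.2 FPKM (1.90, SE 0.35, limma adjusted p = 0.144). In both genes SRC-3KO replicate 2 was the highest library. Gm26205, in the ribosomal protein gene Rpl6, stood at 3.10 and 3.75 FPKM against 6.69 and 6.00 FPKM, a difference of 0.73.

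Snord96a, in Rack1, which encodes a ribosome-bound scaffold protein, stood at 5.30 and 1.21 FPKM in control against 4.13 and 6.52 FPKM in SRC-3KO. Its control replicates alone differed by more than the groups did. Snord104 stood at 2.52 and 1.37 FPKM against 6.76 and 6.32 FPKM (1.38, SE 0.28, limma adjusted p = 0.156), the only 1 of the 5 members without a host that was higher in both SRC-3KO libraries. Snord14a, a U14 RNA in Rps13, stood at 1.95 and 1.60 FPKM against 2.04 and 4.33 FPKM. Its groups did not overlap, but SRC-3KO replicate 1 lay close to the controls.

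By rule, 3 members were also picked for being listed at 0 in both controls. Gm26003, in Snhg17, was listed at 0 in both controls and stood at 3.46 and 3.95 FPKM in SRC-3KO (2.23, SE 0.23, limma adjusted p = 0.0847). Gm25835, in the translation factor gene Eif4a1, was listed at 0 in both controls and stood at 1.36 and 2.78 FPKM in SRC-3KO. Snord21, in Rpl5, was listed at 0 in both controls and stood at 1.04 and 1.17 FPKM in SRC-3KO. Snhg17, the host of Gm26003, had the same order: it stood at 0.316 and 0.373 FPKM in control against 3.12 and 7.21 FPKM in SRC-3KO, a difference of 2.11 (SE 0.38, limma adjusted p = 0.143). Gm23925, a second member in Snhg17 chosen after its values were seen, stood at 0 and 0.0658 FPKM against 2.60 and 5.72 FPKM.

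The entries of the U3 genes Rnu3b4 and Rnu3b2, U3 being the RNA of the small-subunit processome, lie within introns of Tex14. Their sequences are shared by 4 entries each, so reads cannot be assigned to one copy. The first Rnu3b4 entry stood at 2.81 and 0.490 FPKM in control against 1.34 and 0.585 FPKM in SRC-3KO, and Rnu3b2 at 2.44 and 0.287 FPKM against 1.21 and 0.430 FPKM. Control replicate 1 was highest and control replicate 2 lowest, so the groups overlapped for all 4 entries. Snord13, a U13 RNA, stood at 0.408 and 1.24 FPKM against 1.15 and 0 FPKM, which overlapped.

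Only 5 members had both SRC-3KO libraries below both controls. Scarna13, in Snhg10, stood at 1.48 and 1.23 FPKM in control against 1.18 and 0.881 FPKM in SRC-3KO, a difference of -0.22 (SE 0.24, limma adjusted p = 0.662). Snord55, a box C/D RNA, stood at 2.21 and 3.23 FPKM against 2.02 and 1.57 FPKM, a difference of -0.40 (SE 0.27, limma adjusted p = 0.479). In both genes the highest SRC-3KO library lay close to the lower control. The other 3 entered through the controls alone and are named after their values were seen: Snord42a, Gm23639 and Gm50451, at -1.44, -1.08 and -0.97.

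Short genes inside longer ones may hold reads of the gene around them. On the same strand, 66 members overlapped an exon of a gene that spans them, 32 lay within introns only and 5 under no other gene. A host in the table, taken as the gene with the highest mean FPKM whose span holds the member on its strand, existed for 98 members. These were 61 distinct genes, of which 60 were tested. None of the 60 was called, and 10 had an unadjusted p under 0.05, beside 16.5% of all features. In both SRC-3KO libraries 14 were higher and 12 lower, beside 27.5% and 24.9% of all features, and the median log2 fold change was -0.10.

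The difference between a member and its host, on the log2(FPKM + 1) scale in each library, was higher in both SRC-3KO libraries for 60 of the 98 and lower for 4 (Gm24616, Snord42a, Mir1839 and Gm50451). It overlapped for 34. A member's log2 fold change lay above that of its host in 83 of 94. Both counts are partly set by the rule, which chose members and not hosts by these values. Among members that entered through libraries of both groups, the difference was higher for 34 of 62 and lower for 1, and the log2 fold change lay above the host's in 52 of 58. Across the 94 pairs, which share libraries and often a host, Pearson's r was 0.40 and Spearman's rho 0.43, a description only.

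**Figure D3:**
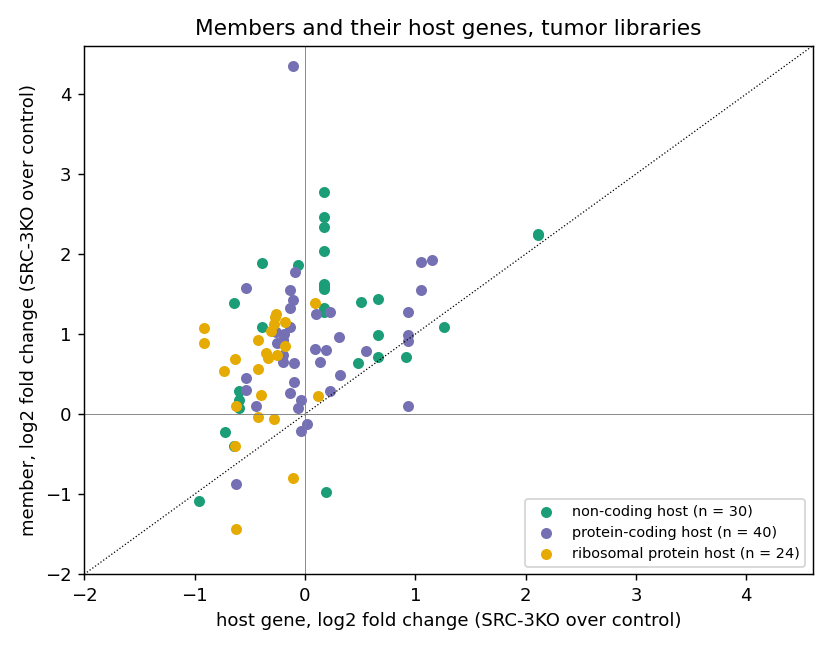
log2 fold change (SRC-3KO over control, on log2(FPKM + 1)) of 94 members against that of their host gene in the tumor libraries, with green for non-coding hosts, purple for protein-coding hosts, yellow for ribosomal protein hosts and a dotted line for equal values. Most points, 83 of 94, lie above the line, and Snora73b stands alone at 4.35 over a host value of -0.10.

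The rule partly sets the counts by kind of host, and of all features tested 27.5% were higher and 24.9% lower. In non-coding hosts 22 of 30 members were higher in both SRC-3KO libraries and 3 were lower, with a median log2 fold change of 1.36. Gas5 alone holds 10 of these 22. In protein-coding hosts other than ribosomal protein genes, 24 of 44 were higher and 0 lower (median 0.79). In ribosomal protein genes 15 of 24 were higher and 2 lower (median 0.72), beside a median of -0.29 for these hosts. Of the 5 without a host, 1 was higher. Nop56 hosts 4 members, 3 of them higher, whose summed level was 7.63 and 8.63 FPKM in control against 17.7 and 27.9 FPKM in SRC-3KO. Nop56 itself stood at 207 and 122 FPKM against 138 and 151 FPKM. All 3 members in Rack1 overlapped.

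Of the proteins that assemble, carry and use snoRNAs, 33 of 34 listed genes were found by symbol in the table. With a tumor limma called 0 of the 33, and 2 had an unadjusted p under 0.05, beside 16.5% of all features. In both SRC-3KO libraries 3 were higher and 12 lower, beside 27.5% and 24.9% of all features, and the median was -0.22. Under the alternatives that kept all 4 libraries, 0 were called as well. The box C/D core stayed below the threshold: fibrillarin (Fbl), the methyltransferase, stood at 69.99 and 48.8 FPKM in control against 53.6 and 50.3 FPKM in SRC-3KO, which overlapped. Nop58 stood at 34.1 and 19.4 FPKM against 16.2 and 19.9 FPKM and also overlapped. Dyskerin (Dkc1), the pseudouridine synthase, stood at 73.4 and 51.6 FPKM against 43.8 and 48.8 FPKM, lower in both SRC-3KO libraries by 0.41 (SE 0.23, limma adjusted p = 0.425). The 2 genes with an unadjusted p under 0.05 were Tcof1 and Nolc1, nucleolar phosphoproteins of ribosomal RNA synthesis and snoRNP transport. Tcof1 stood at 10.7 and 13.2 FPKM against 32.8 and 33.3 FPKM (1.41, SE 0.20, limma adjusted p = 0.121). Nolc1 stood at 36.9 and 33.6 FPKM against 58.1 and 58.2 FPKM (0.71, SE 0.18, limma adjusted p = 0.185). In both genes the SRC-3KO pair lay above the controls.

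Without a tumor the same genes were read as counts, a different unit in different libraries, so tumor and tumor-free levels were not compared. The libraries held 25251597 and 24159217 counts in control and 27452922 and 31075452 in SRC-3KO. The members' counts summed to 1349 and 1783 in control and 1017 and 1382 in SRC-3KO. Of the 103 members, 71 had 0 counts in all 4 libraries, which allows up to 0.0965 to 0.124 CPM (counts scaled to the library total) per library, 3 counts of the total, for counting error only.

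These zeros followed the annotation. Of 74 members that lie over an exon of another entry on either strand, 71 had 0 counts, and all 29 that lie over no such exon had counts. The 3 exceptions were Snord42b, Gm24616 and Scarna13, with 38, 20 and 19 counts in all. All 10 entries of Gas5 and both copies of U17 had 0 counts, while Gas5 stood at 149 and 752 CPM in control and 311 and 400 CPM in SRC-3KO. How the authors' counting treated reads over more than 1 entry is not given here, and its part was not tested.

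**Figure D4:**
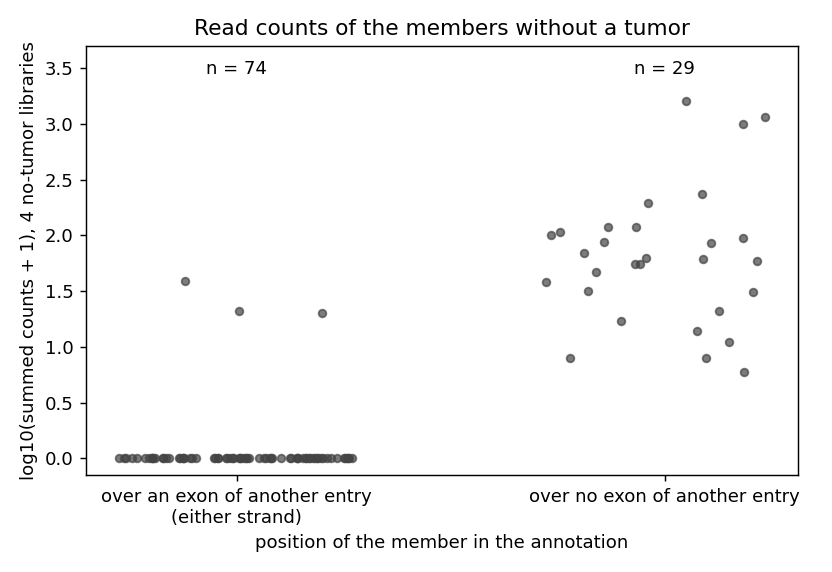
log10(summed counts + 1) of each member over the 4 tumor-free libraries, 1 point a member with sideways scatter for sight only, for 74 members over an exon of another entry on either strand and 29 over none. In the first set 71 points lie at 0, and in the second all lie above 0.

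Of the 32 members with counts, 18 passed the filter on low counts. edgeR's quasi-likelihood test called 0 of them and 0% of all 14860 genes tested. An unadjusted p under 0.05 was found for 0 of the 18 and for 472 of all genes. DESeq2 gave an adjusted p to only 12 of the 18 and called 0 of these. The median log2 fold change was 0.01 for the 18 and -0.02 for all genes. In both SRC-3KO libraries 2 of the 18 were higher and 6 lower, against 18.3% and 21% of all genes.

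Snord104 had the highest level, 2.26 and 25.4 CPM in control and 13.4 and 17.8 CPM in SRC-3KO (0.35, SE 1.18, edgeR adjusted p = 0.944). For edgeR, the SE is the absolute log2 fold change over the square root of the test's F statistic. Snora57, a box H/ACA RNA with Lbhd1 on the opposite strand, stood at 1.62 and 23.2 CPM against 6.41 and 11.7 CPM (-0.26, SE 1.29, edgeR adjusted p = 0.960). Snord55 stood at 27.8 and 5.30 CPM against 3.53 and 2.51 CPM (-2.38, SE 1.14, edgeR adjusted p = 0.910). In all 3 the controls differed from each other by more than the SRC-3KO libraries did, and only for Snord55 did the groups not overlap.

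Snord17, in Snx5, stood at 4.04 and 3.15 CPM in control and 0.510 and 1.35 CPM in SRC-3KO (-1.80, SE 1.35, edgeR adjusted p = 0.910). Snora31, in Tpt1, stood at 4.08 and 2.77 CPM against 0.219 and 0.547 CPM (-3.01, SE 1.47, edgeR adjusted p = 0.910). Snord35a, in Rpl13a, stood at 1.43 and 1.53 CPM against 0.947 and 0.579 CPM (-0.85, SE 1.45, edgeR adjusted p = 0.916). All 3 were lower in both SRC-3KO libraries without passing the test. With a tumor Snora57 stood at 3.66 and 2.03 FPKM in control against 3.67 and 0.907 FPKM in SRC-3KO, and Snord17 at 1.003 and 0.217 FPKM against 0.530 and 1.04 FPKM, and both overlapped.

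Among the 33 snoRNP protein genes, edgeR called 0 without a tumor and 1 had an unadjusted p under 0.05, beside 3.18% of all genes. In both SRC-3KO libraries 7 were higher and 5 lower, beside 18.3% and 21% of all genes, and the median was 0.66. DESeq2 also called 0 of them, and 87 genes in all. Control replicate 1 stood apart: Nop58 was at 62.9 CPM there and at 793 CPM in control replicate 2, with 708 and 823 CPM in SRC-3KO. Ncoa3 stood at 131 and 58.7 CPM in control against 39.8 and 24.5 CPM in SRC-3KO. Foxp3 stood at 230 and 22.3 CPM against 21.2 and 9.33 CPM. The B cell and plasma cell markers summed to 103 and 1629 CPM against 979 and 462 CPM. The CD8 T and NK cell markers summed to 1331 and 128 CPM against 556 and 374 CPM. The Treg markers summed to 3249 and 4478 CPM against 5790 and 5257 CPM. The part of cell types in these levels was not tested. With control replicate 1 as the lone control, the log2 fold changes of Snord104, Snora57 and Snord55 were 2.82, 2.52 and -3.17. With both controls they were 0.35, -0.26 and -2.38. Those of Snord17, Snora31 and Snord35a were -2.06, -3.35 and -0.87, against -1.80, -3.01 and -0.85 with both controls.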

How the data were processed

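Libraries were grouped by the labels' genotype and tumor status, 2 per group, and replicates took the labels' numbers where given. The authors deposited raw read counts per gene for the 4 tumor-free libraries and StringTie FPKM per gene for the 4 tumor libraries, per the file headers and column names. The submitters' processing notes name featureCounts, STAR, Trim Galore, FastQC and edgeR, with mm10 as the build. The sources used here do not give versions, strand setting, annotation release or treatment of reads over several genes. Gene spans, exons and sequences came from GENCODE vM21, matched by gene ID.

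Tumor values were tested with limma 3.58.1 (R 4.3.3), with an intensity trend on log2(FPKM + 1), for features that reached 1 FPKM in 2 or more libraries, the rule that also picks the members. Counts were tested with edgeR 4.0.16 (filterByExpr, TMM factors 0.916 to 1.09, quasi-likelihood test, common dispersion 0.791). CPM is counts over the library total. p-values were adjusted by Benjamini-Hochberg over all features tested, with a threshold of 0.05. Both fits were run on simulated data with large changes set in features of higher level. For counts, the simulated dispersion was lower than that of the data. These runs do not show how the fits perform for low members. Depth was 24159217 to 31075452 counts per tumor-free library, and the read depth of the tumor libraries is unknown.

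Named members were, by rule, those with an adjusted p under 0.05, the 10 highest by mean FPKM, those of at least 10 FPKM with the largest changes, up to 6 listed at 0 in 1 group and at 1 FPKM or more in the other, the 6 highest by mean CPM, and U3, U8, U13, U14, U17 and Scarna genes. Of snoRNP proteins, the rule took up to 6 with the smallest p with a tumor and 4 core proteins, of which a part is printed. The members and lists were chosen with earlier results of these data known. Alternatives were other filters, pseudocounts, scalings and tools (DESeq2 1.42.0, limma-voom), a replicate block and leaving out each library.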

Additional observations from a re-analysis of the deposited data

Results flagged for a closer look

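With both states set side by side, 5 of the 32 members with tumor-free counts had opposite orders. Every SRC-3KO library lay on one side of both controls with a tumor and on the other side without. The difference between states was not tested, since the units and libraries differ. Gm22748, Snora31, Gm26387 and Snord35a reached 1 FPKM in both SRC-3KO libraries alone, so the rule fixed their order with a tumor. The share of all features with opposite orders was not computed. With a tumor, 27.5% of all features were higher in both SRC-3KO libraries and 24.9% lower. Without one, 18.3% and 21% of all genes were. Gm22748, in Odc1, had a log2 difference of 1.93 with a tumor (0.219 and 0.418 FPKM in control against 4.56 and 3.51 FPKM in SRC-3KO) and 47, 6, 3 and 2 counts without one, in control replicates 1 and 2 and SRC-3KO replicates 1 and 2. Snora31 had 1.02 with a tumor (0 and 0.220 FPKM against 1.44 and 1.07 FPKM) and 103, 67, 6 and 17 counts without. Gm26387, in Rpl5, had 0.89 with a tumor (0 and 0.310 FPKM against 1.08 and 1.15 FPKM) and 14, 9, 6 and 1 counts without. Snord35a had 0.57 with a tumor (0.826 and 0.207 FPKM against 1.32 and 1.08 FPKM) and 36, 37, 26 and 18 counts without. Scarna13 had -0.22 with a tumor and 2, 0, 12 and 5 counts without. Of the 5, Snora31 and Snord35a passed the filter on low counts.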

How the results depend on the processing

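With a tumor, the count of 1 called member became 0 when FPKM was multiplied by length and 0 with no filter, and stayed 1 with a pseudocount of 0.1, a filter of 5 FPKM or median-of-ratios scaling. Among the 5 members under no other gene it is 0 by construction, since Snora73b is not one of them. Replicate numbers 1 and 2 of the tumor libraries only share a number (correlation of deviations 0.0357 over 2 pairs). With a replicate block 4 members were called (Snora73b, Snord78, Gm22357 and Gm26003), as were 72 of all features against 14 without it. No paired analysis was possible without a tumor because the labels number those libraries in no shared way. Leaving out 1 library gave 0 to 30 called members: 11 without control replicate 1, 30 without control replicate 2, where 20.1% of all features were called, and 0 without either SRC-3KO library, where Snora73b is not tested. The lone library is then assumed to vary like the other group. All calls without a control were higher in SRC-3KO, and 10 members were called in both of those fits. The snoRNP protein genes gave 0 to 13 calls, with 2 without control replicate 1 and 13 without control replicate 2. Without a tumor the range was 0 to 3 for members and 0 to 26 for snoRNP protein genes, the highest without control replicate 2, which leaves control replicate 1 as the lone control. The share of members higher in both SRC-3KO libraries was 60.2%, and 35.6% over all snoRNA and scaRNA genes with any value. The count of 60 member-to-host differences was 58 with the smallest host and 66 to 74 without 1 library (chosen after seeing the data). Without 1 library the count could not fall, since an order over all 4 libraries also holds with 1 left out. Leaving out 1 library turned the tumor direction of Snora28 (-0.20 to 0.41), Snord96a (-0.021 to 1.49), Snora57 (-0.98 to 0.31), Rnu3b2 (-0.95 to 0.0731 and 0.0735 for its entries), Snord13 (-0.61 to 0.28) and Snord17 (-0.18 to 0.39). Without a tumor it turned Snord104 (-0.63 to 2.82) and Snora57 (-1.27 to 2.52), and limma-voom put Snora57 at 0.60. Snora28 was -0.11 without control replicate 1. In the tumor-free libraries Snora57 was 0.22 when SRC-3KO replicate 1 was left out. The cause was not tested. Low coverage and 2 libraries per group limit the precision of all members.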
